A study of Sus scrofa with 12 samples.

Results

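The RNA of 9 genes of bone morphogenetic protein (BMP) signalling was examined in ovaries of gilts, which are female pigs (Sus scrofa) that have not farrowed: the receptors BMPR1A, BMPR1B, BMPR2 and AMHR2, the ligands BMP2, BMP4 and BMP6, the antagonist GREM1 and the target gene ID1. These 9 symbols, out of 29150 loci in the deposited table, were matched to its gene name column, and where a symbol stood on several rows the row with the highest mean count was taken. The 6 ES gilts, of a New French Yorkshire line, had shown consecutive estrus cycles and were slaughtered in the third. The 6 NES gilts were their litter sisters, in which estrus was never recorded although detection had begun at 165 days of age. Both groups carry no stated treatment or engineered allele, and the sources used here do not give the day on which the NES gilts were slaughtered. Total RNA of the left ovary was sequenced after removal of ribosomal RNA, 1 library per gilt. The ovary was taken whole, so that fewer cells of a type and less RNA per cell cannot be told apart.

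BMPs are secreted dimers of the transforming growth factor beta family. They assemble type I receptors (BMPR1A, BMPR1B) with type II receptors (BMPR2, or AMHR2 for anti-Müllerian hormone), and the activated type I kinase phosphorylates SMAD1, SMAD5 and SMAD9, which enter the nucleus with SMAD4 and switch on targets such as the ID genes. Gremlins, noggin and chordin bind the ligands outside the cell and keep them from the receptors. In the follicle, BMPs from theca cells, granulosa cells and the oocyte are known to shape the granulosa response to FSH and to restrain progesterone synthesis, and a change in BMPR1B underlies the high litter size of Booroola sheep.

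The libraries held 58140547 to 68961955 counts. Levels are in CPM, counts scaled to library size with TMM factors, and a count of 0 allows a level of up to 0.0430 to 0.0519 CPM by library (3 counts, counting error only). Of the 29150 loci, 20421 had a mean FPKM (fragments scaled to locus length and library size) of at least 0.5 and were tested. Of the defining markers of the ovary, 9 of 10 granulosa markers, 6 of 6 theca markers and 7 of 9 oocyte markers had a row of their own. Of these rows, 9, 6 and 6 in that order reached the mean FPKM of 0.5. The oocyte marker FIGLA was at 0 in at least 1 library. Between the groups, summed theca markers were 97.1 to 987 CPM in ES and 614 to 1066 CPM in NES (median log2 difference -1.43). By the test described below, 3 of 6 (PTCH1, GLI1 and HHIP) were called lower in ES, beside 0.793% of all tested loci. CYP17A1, INSL3 and NR5A1 were not called. Sums over 5 of 8 luteal markers were 382 to 3709 CPM in ES and 310.0 to 488 CPM in NES (median log2 difference 1.54, 0 of 5 called), with 5 of 6 ES ovaries above every NES ovary. The ovaries ES1, ES3, ES4 and ES6 stood apart in summed marker levels. ES1 had the highest luteal sum (3709 CPM, next 1521 CPM in ES6) and the highest sum of 8 smooth muscle and pericyte markers (3969 CPM). ES3 had 1009 CPM over 7 of 8 macrophage markers, where no other library passed 135 CPM, and the lowest sums of granulosa markers (760 CPM) and theca markers (97.1 CPM). ES6 had 248 CPM over 7 of 8 epithelial markers, where the others had 3.63 to 18.3 CPM; of these markers KRT18, CLDN4 and FOXJ1 were at 0 in at least 1 library. Among ES libraries, ES4 had the lowest luteal (382 CPM), endothelial (591 CPM), smooth muscle and pericyte (1789 CPM) and macrophage (65.8 CPM) sums. Its theca sum was 196 CPM. Differences that rest largely on 1 of these ovaries are also given without it.

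The 9 symbols stood on 17 rows, and 4 of them on more than 1. For 7 members the row taken carries an annotated coding transcript. For BMPR2 and BMP6 it does not. The BMPR2 row taken (MSTRG.9119, chromosome 15, 105954163 to 106050988, build Sscrofa11.1) lies on the minus strand, opposite to the coding row (MSTRG.9120, 105970287 to 106139772), and 82.0% of it falls within the RefSeq BMPR2 gene. The BMP6 row taken (MSTRG.20306, chromosome 7, 5068578 to 5112129) has no strand and lies wholly inside the BMP6 gene, whose coding row (MSTRG.20305) spans 5058036 to 5211316. Both coding rows are reported beside them. Without a stated strand setting, reads of a gene and of an opposite-strand or inner row cannot be told apart with certainty.

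No member passed the test between ES and NES ovaries. Of 9 members, 8 passed the expression filter, and edgeR (quasi-likelihood test, Benjamini-Hochberg adjustment over all 20421 loci) called 0 of these 8 (adjusted p = 0.152 to 0.967). It called 0.945% of all tested loci, 0.152% higher in ES (31 loci) and 0.793% lower (162 loci). The split depended on the tool, with 17 higher and 313 lower by limma (1.62% of loci) and 465 higher and 600 lower by DESeq2 (5.43% of loci with an adjusted p), and edgeR called 0 loci when any of 7 single libraries was left out. At an unadjusted p under 0.05 stood 2 of the 8, BMPR1A and BMPR1B, against 16.3% of all loci. With the coding rows of BMPR2 and BMP6 in place of the rows taken it was 3 of 8, BMPR2 being the third. DESeq2 called 0 of the 7 members to which it gave an adjusted p (none for BMPR1B), with 1 at an unadjusted p under 0.05, and limma on log2(FPKM + 0.5) called 0 of 8, also with 1. The log2 differences (ES minus NES) had a median of 0.17 over the 8 members and 0.043 over all loci, with 5 positive and 3 negative. No member separated the groups: the ranges of ES and NES overlapped for each of the 9, whereas 1.42% of all tested loci had groups that did not overlap. In CPM, BMPR1B was highest in ES1 (8.93 times the next library), GREM1 in ES3 (14.9 times) and AMHR2 in ES6 (1.91 times).

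**Figure D1:**
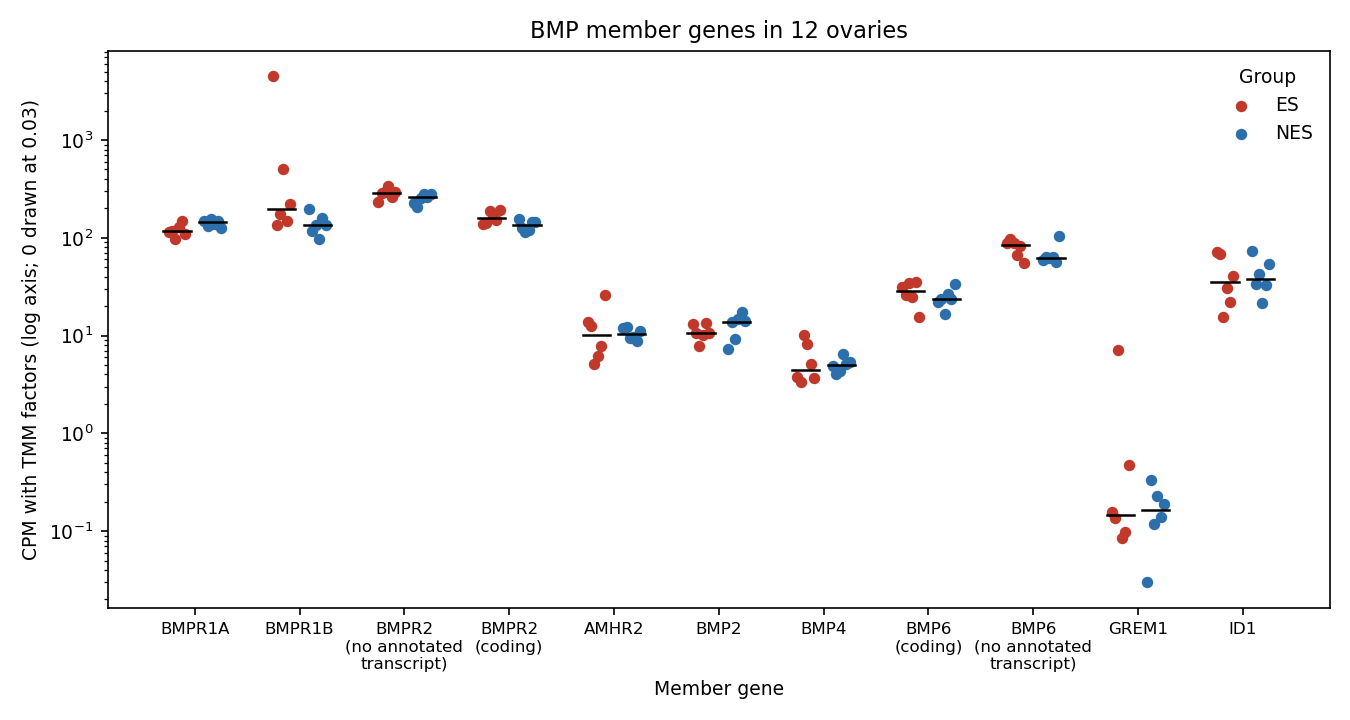
Level of each member in every library, in CPM on a log axis (red ES, blue NES, 6 libraries each; the line is the group median; the GREM1 count of 0 in NES1 is drawn at 0.03). The groups overlap for every gene, and BMPR1B reaches 4512 CPM in ES1 and GREM1 7.10 CPM in ES3.

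BMPR1B (MSTRG.22805, chromosome 8, 124535815 to 124841180, minus strand), a type I receptor kinase, ranged in ES from 136 CPM through a median of 197 CPM to 4512 CPM. In NES it ranged from 96.2 CPM through 134 CPM to 196 CPM. Of this row, 99.7% falls within the RefSeq gene, but that gene reaches from 124536648 to 125035841, past the end of the row. ES1 alone held 0.400% of its library's counts on this row, 8.93 times the level of the next library, ES4 (505 CPM). ES6 followed at 220 CPM, and these 3 ES ovaries lay above every NES ovary, while ES2 (136 CPM), ES3 (173 CPM) and ES5 (149 CPM) lay within the NES range. Its mean was 949 ± 1751 CPM over the ES ovaries and 139 ± 34.6 CPM over the NES ovaries (SD, n = 6 each). The log2 difference was 2.77 ± 0.88 (SE; edgeR adjusted p = 0.152). Without ES1 it was 0.75 (adjusted p = 0.276), without ES1 and ES4 it was 0.28 (0.538), and over all its alternatives the adjusted p lay between 0.106 and 0.538. ES1 also had the highest luteal and smooth muscle marker sums and the highest granulosa sum (7314 CPM; 760 to 6856 CPM in the others), whereas ES4 had the lowest luteal sum among ES libraries (382 CPM); the part of these cells in the BMPR1B level was not tested.

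A further row on the opposite strand of BMPR1B (MSTRG.22807, chromosome 8, 124776626 to 124961468, plus strand), without an annotated transcript, was also high in the same 3 ovaries. It reached 1029 CPM in ES4, 886 CPM in ES1 and 617 CPM in ES6, and lay between 231 and 263 CPM in the other ES libraries. NES libraries had 220 to 429 CPM. In 11 libraries this row held 1.33 to 2.80 times the CPM of the coding row. In ES1 it held 0.196 times, although there too it lay above every NES library. Its log2 difference was 0.89 ± 0.38 (adjusted p = 0.271).

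BMPR1A (MSTRG.7808, chromosome 14, 87743388 to 87894777), the other type I receptor of the list, varied little. It ranged from 96.4 CPM through a median of 116 CPM to 148 CPM in ES and from 126 CPM through 144 CPM to 155 CPM in NES. Of the 6 ES ovaries, 4 lay below every NES ovary, with ES3 lowest; ES4 and ES5 lay within the NES range. The means were 119 ± 17.4 CPM and 141 ± 10.8 CPM. The log2 difference was -0.25 ± 0.11 (adjusted p = 0.276), and it was negative with any single library left out (-0.32 to -0.20). The row runs at its end into MMRN2, an endothelial matrix gene, so a share of reads could belong there.

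The balance of the 2 type I receptors was compared within each library as the log2 ratio of BMPR1B to BMPR1A, each as FPKM + 0.5. In NES the ratio ranged from -1.59 through a median of -1.30 to -1.03, below 0 in each NES ovary on this scale. In ES it ranged from -1.29 through -0.58 to 3.32. It was above every NES ovary in 4 of 6 ES ovaries (ES1, ES3, ES4 and ES6). The difference of means was 1.32 (exact two-sided permutation test over 924 divisions, p = 0.0152, adjusted over 2 ratios 0.0303). It was 0.65 without ES1 (exact permutation test, adjusted p = 0.0390) and 0.43 without ES1 and ES4 (0.0952). The call was lost when any 1 NES library was left out (exact permutation test, adjusted p = 0.0606 to 0.126). It was also lost with a replicate block that treats same-numbered sisters as pairs (sign flips within title numbers, adjusted p = 0.125). Whether the numbers mark pairs was not settled. The high BMPR1B level was known when this ratio was chosen. FPKM of BMPR1B rests on an implied length of 159 kb and that of BMPR1A on 49.4 kb, so the sign of the ratio depends on those lengths. An implied length was worked out from count, FPKM and total counts and need not be a transcript length. For the opposite-strand row of BMPR1B it was 232 kb, where the row spans 184843 bases. In CPM, which takes no length into account, BMPR1B was above BMPR1A in 6 of 6 ES ovaries and in 3 of 6 NES ovaries (NES1, NES5 and NES6). With TMM-scaled CPM in place of FPKM the difference was 1.60 (exact permutation test, adjusted p = 0.0346).

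**Figure D2:**
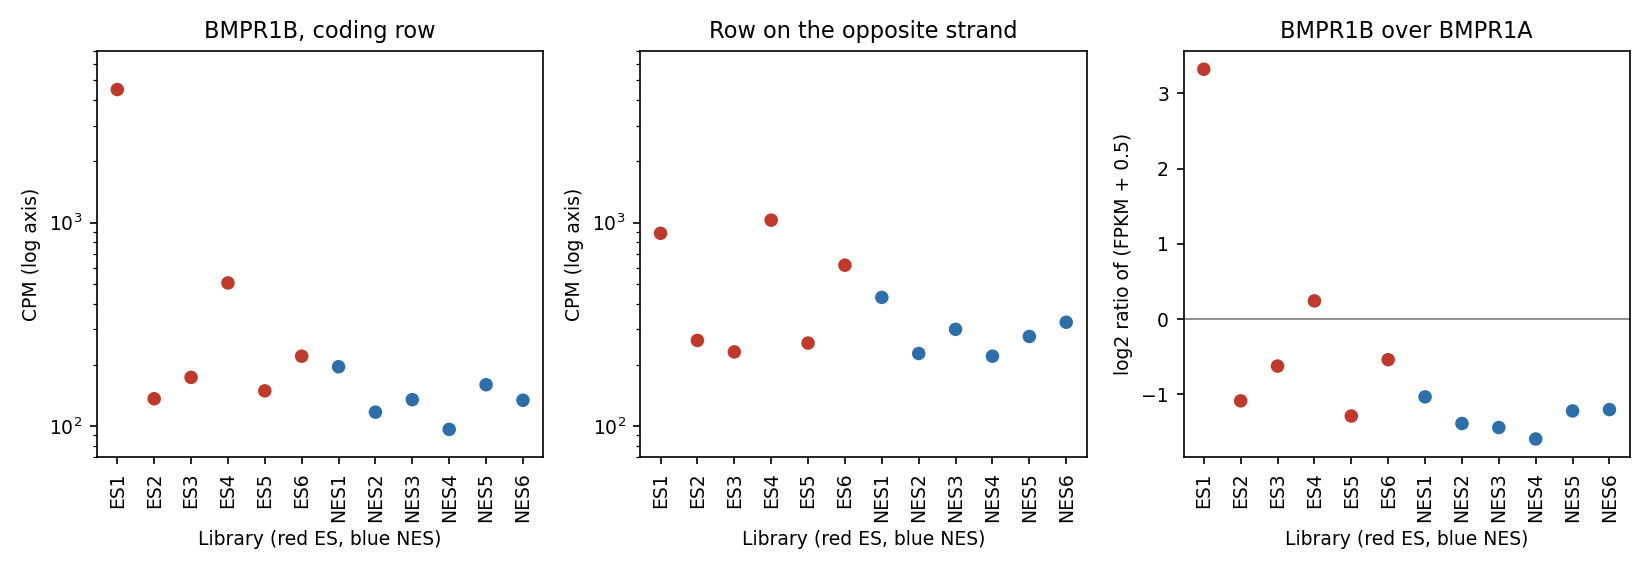
BMPR1B in each of the 12 libraries (red ES, blue NES): CPM of the coding row and of the opposite-strand row on log axes, and the log2 ratio of BMPR1B to BMPR1A in FPKM + 0.5. ES1 stands highest on the coding row (4512 CPM), ES4 on the opposite-strand row (1029 CPM), and the ratio is highest in ES1 (3.32); its sign depends on the implied lengths.

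Of the type II receptors, BMPR2, which most BMPs use, varied little between ovaries of a group. Its coding row ranged from 139 CPM through a median of 161 CPM to 194 CPM in ES and from 115 CPM through 135 CPM to 156 CPM in NES. The ovaries ES3, ES4 and ES6 lay above every NES ovary, and no ES ovary lay below the NES range. The log2 difference of the coding row was 0.28 ± 0.12 (adjusted p = 0.253). The more abundant minus-strand row ranged from 230 to 341 CPM in ES and from 205 to 283 CPM in NES, with a log2 difference of 0.17 ± 0.11 (adjusted p = 0.492). Less abundant rows inside the gene were not called either. A plus-strand one (MSTRG.9122) had 0.35 ± 0.13 (edgeR adjusted p = 0.202), with 5 of 6 ES ovaries above every NES ovary. A minus-strand one (MSTRG.9123) had 0.23 ± 0.16 (adjusted p = 0.511).

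AMHR2 (MSTRG.16787, chromosome 5, 18642823 to 18650406), the type II receptor for anti-Müllerian hormone and a gene of granulosa cells, spread widely in ES and little in NES. It ranged from 5.08 CPM through a median of 10.2 CPM to 26.1 CPM in ES and from 8.79 CPM through 10.4 CPM to 12.3 CPM in NES. ES1, ES2 and ES6 lay above every NES ovary and ES3, ES4 and ES5 below every one, so no ES ovary fell inside the NES range. The SD of log2(CPM + 0.5) was 0.83 in ES and 0.19 in NES. The log2 difference was 0.17 ± 0.34 (adjusted p = 0.851), and -0.23 without ES6. Summed granulosa markers lay between 760 and 7314 CPM in ES and between 1698 and 4889 CPM in NES. They were 6856 CPM in ES6, where AMHR2 and the epithelial markers were highest, and 760 CPM in ES3, where it was lowest, but 7314 CPM in ES1 with 13.6 CPM of AMHR2; their part in its level was not tested.

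Among the ligands, BMP2 (MSTRG.10167, chromosome 17, 15749836 to 15761223), a product of granulosa cells, ranged from 7.80 CPM through a median of 10.6 CPM to 13.5 CPM in ES. In NES it ranged from 7.28 CPM through 13.9 CPM to 17.4 CPM. The ES range lay wholly inside the NES range. The log2 difference was -0.21 ± 0.21 (adjusted p = 0.654).

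BMP4 (MSTRG.1442, chromosome 1, 183413653 to 183422839), a ligand of theca and stromal cells, was the least abundant ligand of the 3 in CPM. It ranged from 3.37 CPM through a median of 4.44 CPM to 10.1 CPM in ES and from 4.02 CPM through 4.97 CPM to 6.49 CPM in NES. ES3 (10.1 CPM) and ES4 (8.18 CPM) lay above every NES ovary, and ES1, ES2 and ES6 below every one. The log2 difference was 0.18 ± 0.28 (edgeR adjusted p = 0.795). It was -0.068 without ES3, the ovary with the high macrophage markers, and 0.048 without ES4. ES3 and ES4 also had the lowest sums of theca markers (97.1 and 196 CPM, against 583 to 1066 CPM in the other 10 libraries). The part of either cell type in the BMP4 level was not tested.

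BMP6, a ligand of the oocyte, granulosa cells and endothelium, ranged on its coding row from 15.6 CPM through a median of 28.5 CPM to 35.6 CPM in ES and from 16.5 CPM through 23.5 CPM to 33.5 CPM in NES. The log2 difference of that row was 0.19 ± 0.21 (adjusted p = 0.686). The inner strandless row was more abundant, from 55.1 CPM through 84.9 CPM to 98.2 CPM in ES and from 57.0 CPM through 62.4 CPM to 104 CPM in NES. Of the NES libraries, 5 lay between 57.0 and 63.4 CPM and NES6 apart at 104 CPM. Its log2 difference was 0.23 ± 0.18 (adjusted p = 0.552), and 0.39 without NES6. ES6 was the lowest of the 12 libraries on both rows. The coding row overlaps the neighbouring gene TXNDC5 at its end.

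GREM1 (ENSSSCG00000033657, chromosome 1, 136617105 to 136629292), an antagonist that cumulus and granulosa cells make under the influence of the oocyte, was near the limit of detection in every ovary but ES3. It held 450 counts in ES3 (7.10 CPM) and 0 to 30 counts in the other 11 libraries (at most 0.476 CPM, in ES6). NES1 had 0 counts, which allows up to 0.0430 CPM. The ES median was 0.145 CPM and the NES median 0.164 CPM. With a mean FPKM of 0.151 GREM1 was under the filter. In a fit without a filter its log2 difference was 2.99 (edgeR adjusted p = 0.287), and 0.17 without ES3 (0.959). ES3, which held the macrophage markers, also had the lowest granulosa markers of the 12 libraries, and the part of either in its GREM1 level was not tested. The log2 ratio of GREM1 to the sum of BMP2, BMP4 and BMP6 was taken in FPKM, with 0.5 added to GREM1 and to the sum. It was -1.65 in ES3 and between -3.91 and -3.20 in the other 11 ovaries. In those 11 GREM1 was at most 0.095 FPKM, so that the added 0.5 outweighed it. NES1, with 0 counts, stood at -3.29. The sum used the strandless BMP6 row. The groups differed by 0.43 (exact two-sided permutation test, p = 0.216, adjusted over 2 ratios 0.216), and by 0.12 without ES3 (exact permutation test, adjusted p = 0.435). With the coding row of BMP6 the difference was 0.38 (exact permutation test, adjusted p = 0.312). With 0.1 added in place of 0.5 it was 0.73 (exact permutation test, adjusted p = 0.286).

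ID1 (MSTRG.10353, chromosome 17, 35316620 to 35322100), an inhibitor of differentiation that BMP signals switch on within hours, varied more between ovaries than between groups. It ranged from 15.3 CPM through a median of 35.6 CPM to 71.4 CPM in ES and from 21.3 CPM through 38.2 CPM to 72.6 CPM in NES. NES1 (72.6 CPM), ES1 (71.4 CPM) and ES2 (68.8 CPM) were highest and ES3 lowest. The log2 difference was -0.048 ± 0.39 (adjusted p = 0.967). Its direction turned with each of 5 single libraries left out. Of the ID1 row, 20.5% falls within the RefSeq gene, as the row runs past its end and overlaps a row named for BCL2L1.

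Per length, on the FPKM scale and with coding rows, ID1 was the highest member by median in both groups (5.30 FPKM in ES, 6.04 FPKM in NES) and GREM1 the lowest (0.027 and 0.032 FPKM). In NES the order between them was BMP2 (4.74 FPKM), BMP6 (3.90 FPKM), BMPR1A (2.93 FPKM), BMPR2 (2.62 FPKM), AMHR2 (2.43 FPKM), BMPR1B (0.867 FPKM) and BMP4 (0.763 FPKM). The ranges of neighbours in this order overlapped except at 2 steps. AMHR2 lay above BMPR1B in 6 of 6 NES ovaries without overlap, and BMP4 above GREM1 likewise. The first of these rests on the implied length of BMPR1B, since in CPM BMPR1B (96.2 to 196 CPM in NES) lay above AMHR2 (8.79 to 12.3 CPM). Other places in the order rest on implied lengths too, 3.09 kb for BMP2 and 6.25 kb for BMP6, but 49.4 kb for BMPR1A and 53.7 kb for BMPR2. In CPM the NES medians of BMP2 (13.9 CPM) and BMP6 (23.5 CPM) lay below those of BMPR1A (144 CPM) and BMPR2 (135 CPM). Of the ID1 row, only 20.5% falls within the RefSeq gene. In ES the order was BMP6 (4.21 FPKM), BMP2 (3.38 FPKM), BMPR2 (2.96 FPKM), BMPR1A (2.27 FPKM), AMHR2 (2.27 FPKM), BMPR1B (1.22 FPKM) and BMP4 (0.664 FPKM), and the ranges of all neighbours overlapped. The 2 pairs that exchanged places, BMP2 with BMP6 and BMPR1A with BMPR2, overlapped in both groups.

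Between ovaries, ES libraries were more varied than NES libraries. The SD of log2(CPM + 0.5) was larger in ES for 6 of the 8 tested members, against 74.6% of all tested loci, so the members were like other loci in this. Median SDs were 0.46 in ES and 0.27 in NES over the members and 0.34 and 0.23 over all loci. BMP2 and the BMP6 row taken were the 2 members with a smaller SD in ES (0.27 against 0.46 for BMP2).

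**Figure D3:**
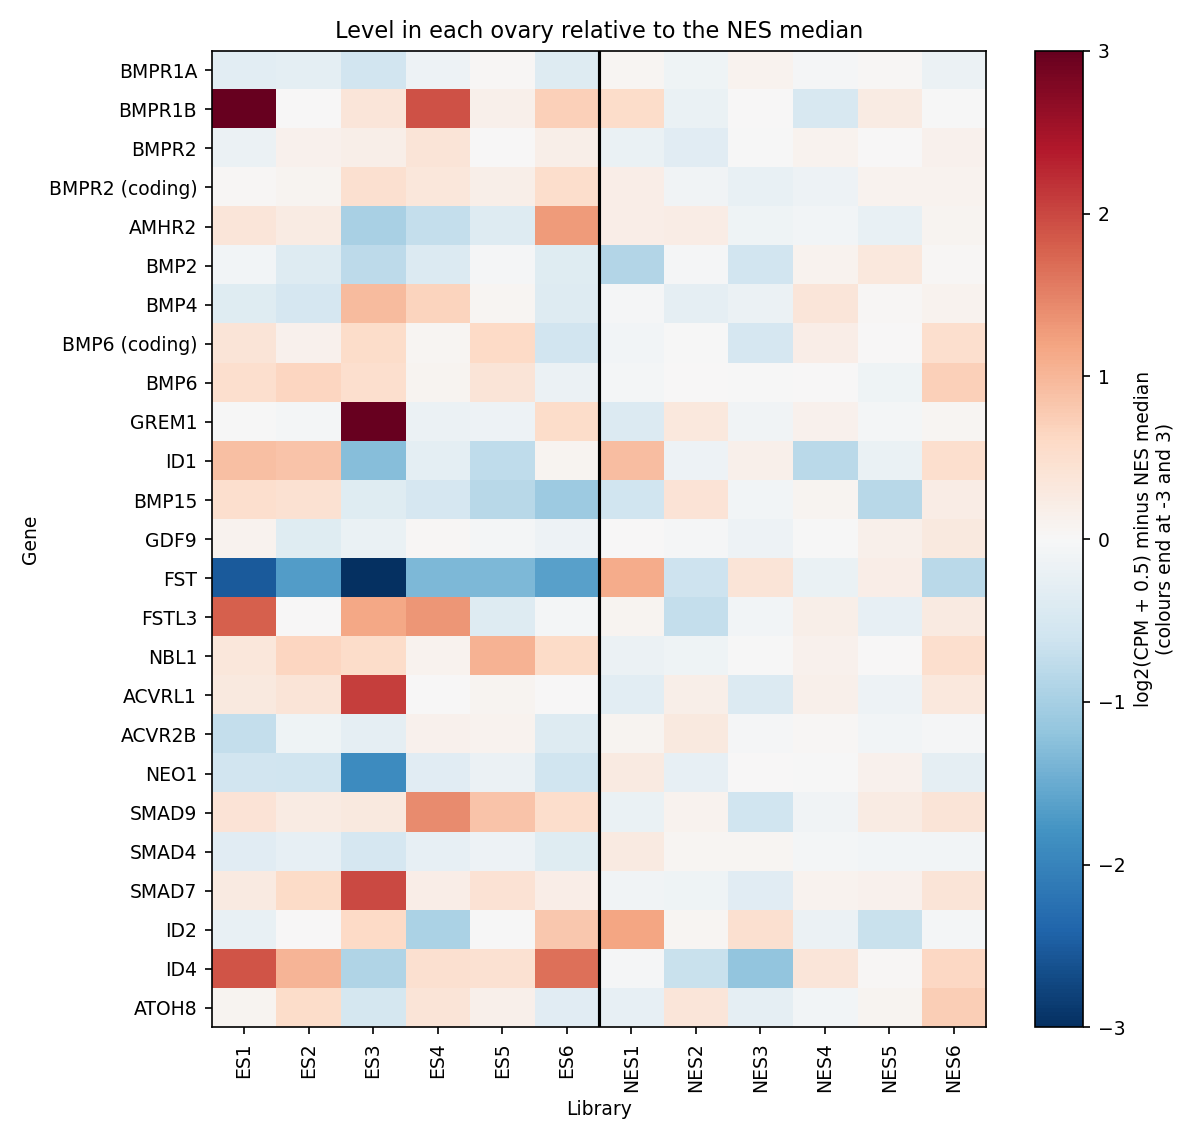
Level of each member and of 14 further BMP pathway genes in each library, as log2(CPM + 0.5) minus the NES median (colours end at -3 and 3; the line separates ES from NES). BMPR1B is high in ES1 and GREM1, ACVRL1 and SMAD7 in ES3, and FST is below the NES range in all 6 ES ovaries.

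The rest of the BMP pathway was followed in a list of 54 genes, of which 48 had a row and 30 were tested. EdgeR called 0 of these 30 (0 higher, 0 lower), with 8 at an unadjusted p under 0.05, beside the 16.3% of all loci. DESeq2 called 2 of the 29 that it gave an adjusted p, beside 5.43% of all loci, and limma on log2(FPKM + 0.5) called 1 of 30, beside 1.62%. The log2 differences had a median of 0.13, with 19 positive and 11 negative.

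Further antagonists and modulators had 3 of 8 tested genes at an unadjusted p under 0.05, beside 16.3% of all tested loci. FST, follistatin, which binds activins and more weakly BMPs, ranged from 5.78 CPM through a median of 31.7 CPM to 39.4 CPM in ES and from 57.4 CPM through 101 CPM to 218 CPM in NES. All 6 ES ovaries lay below every NES ovary. Of all tested loci, 1.42% had groups that did not overlap, counting both directions. The log2 difference of FST was -2.03 ± 0.44 (edgeR adjusted p = 0.0519), just outside the threshold. Of 25 alternatives 7 called it, DESeq2 among them (adjusted p = 2.41e-04). Theca markers were also lower and luteal markers higher in ES by the medians given above (-1.43 and 1.54), and their part in the FST, NEO1 and SMAD4 differences was not tested. NBL1, a relative of gremlin, ranged from 346 to 662 CPM in ES and from 283 to 454 CPM in NES (log2 difference 0.50 ± 0.16, adjusted p = 0.155), with 4 ES ovaries above every NES ovary. FSTL3, a follistatin relative, ranged from 39.0 to 177 CPM in ES and from 30.7 to 61.3 CPM in NES (log2 difference 0.92 ± 0.35, adjusted p = 0.228). ES1, ES3 and ES4 lay above every NES ovary, and without ES1 and ES4 the difference was 0.36.

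Beside 16.3% of all tested loci, 1 of 9 further receptors stood at an unadjusted p under 0.05. That was NEO1, neogenin, a partner of the RGM co-receptors, with 68.2 to 227 CPM in ES and 211 to 306 CPM in NES (log2 difference -0.60 ± 0.23, adjusted p = 0.221). In 5 of 6 ES ovaries it was below every NES ovary. Without ES3, where NEO1 was lowest, the log2 difference was -0.44 (edgeR adjusted p = 0.109). ACVRL1, the endothelial type I receptor ALK1, had 126 CPM in ES3 and 29.5 to 38.8 CPM in the other ES ovaries, with 22.1 to 37.0 CPM in NES (log2 difference 0.74 ± 0.35, adjusted p = 0.326; 0.18 without ES3). ACVR2B, a type II receptor shared with activins, had a log2 difference of -0.23 ± 0.14 (adjusted p = 0.447).

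Of the 7 tested signal transducers and inhibitors, 3 stood at an unadjusted p under 0.05, beside 16.3% of all tested loci. SMAD4, the common partner of the receptor SMADs, ranged from 260 CPM through a median of 299 CPM to 331 CPM in ES and from 345 CPM through 368 CPM to 439 CPM in NES. It was lower in all 6 ES ovaries than in any NES ovary, beside the 1.42% of all tested loci whose groups did not overlap. The log2 difference of SMAD4 was -0.33 ± 0.09 (edgeR adjusted p = 0.110). Of 25 alternatives only DESeq2 called it (adjusted p = 0.00953). SMAD9, a receptor SMAD of the BMP branch, ranged from 22.0 to 49.8 CPM in ES and from 11.9 to 24.1 CPM in NES. Its log2 difference was 0.70 ± 0.23 (edgeR adjusted p = 0.159), and 0.49 without ES4, where SMAD9 was highest. SMAD7, an inhibitory SMAD, reached 60.3 CPM in ES3 and lay between 17.1 and 22.7 CPM in the other ES ovaries, with 11.8 to 19.7 CPM in NES (0.77 ± 0.31, adjusted p = 0.240; 0.32 without ES3). ACVRL1 and SMAD7 were thus both highest in ES3, where 7 of 7 macrophage markers and 2 of 8 endothelial markers were also at their highest. The summed endothelial markers of ES3 (729 CPM) lay within the NES range (398 to 929 CPM). The part of these cells in ACVRL1 and SMAD7 was not tested.

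Of the ID family and other targets, 4 were tested. At an unadjusted p under 0.05, where 16.3% of all tested loci stood, was 1 of them, ID4. It ranged from 5.73 CPM through a median of 19.5 CPM to 42.6 CPM in ES and from 4.66 CPM through 11.2 CPM to 17.5 CPM in NES (log2 difference 1.08 ± 0.44, adjusted p = 0.248), with ES1, ES2 and ES6 above every NES ovary. ID2 (-0.12 ± 0.34, adjusted p = 0.902) and ATOH8, a target known from endothelium and liver (-0.051 ± 0.24, adjusted p = 0.941), had differences smaller than their errors. The 2 further ligands past the filter were the oocyte factors GDF9 (-0.15 ± 0.11, adjusted p = 0.546) and BMP15 (-0.12 ± 0.32, adjusted p = 0.890). GDF9 lay between 14.0 and 22.5 CPM in all 12 ovaries.

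**Figure D4:**
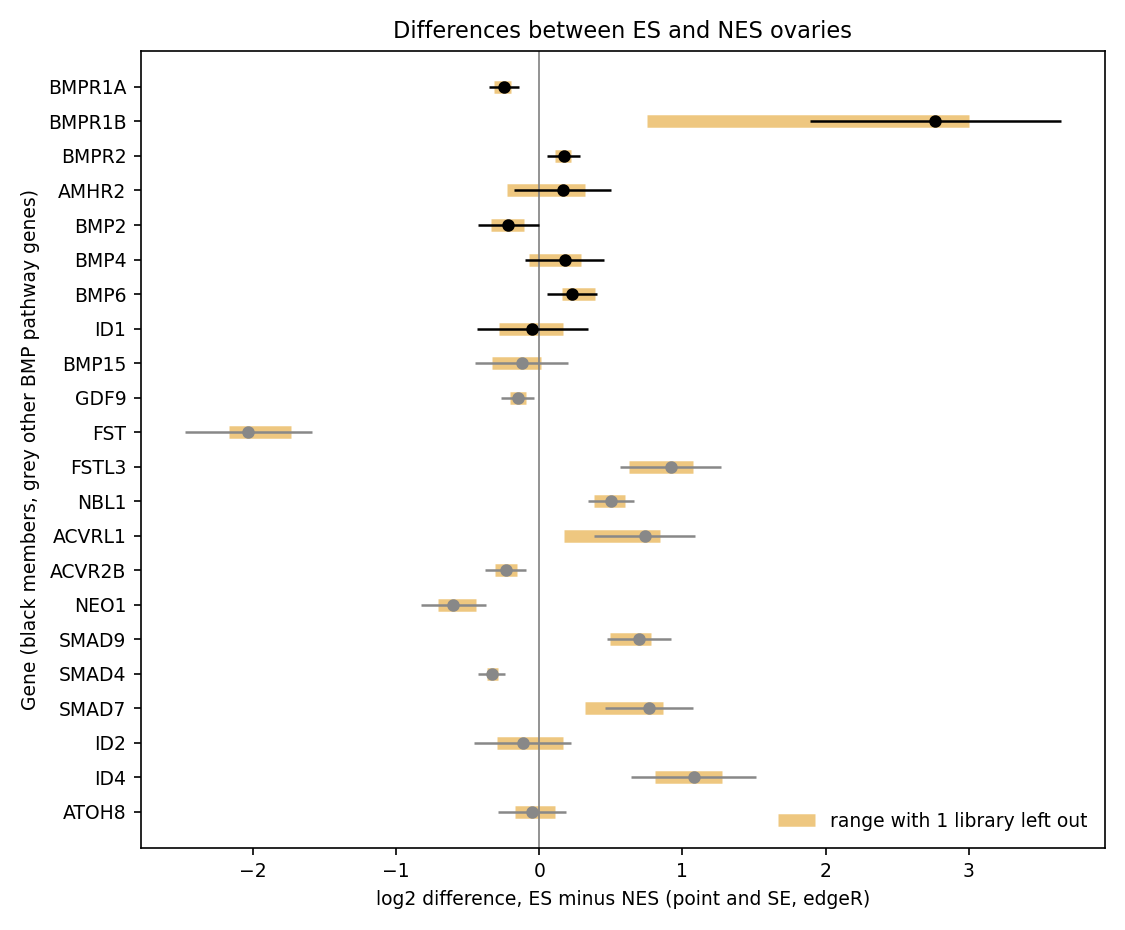
Log2 difference between ES and NES from edgeR (point, with its SE) for the 8 tested members (black) and 14 named pathway genes (grey), and in yellow the range when 1 library is left out; GREM1 is not drawn. BMPR1B has the widest range (0.75 to 3.00), and FST, at -2.03, is lowest.

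For each tested member, the loci whose profile over the 12 libraries was most like its own were listed by Pearson correlation of log2(CPM + 0.5) among 15787 named loci; they were picked for that likeness, so no p is given. Closest to BMPR1B were ABL2, a cytoplasmic tyrosine kinase (r = 0.98, and 0.97 without ES1), COMMD6 (0.97 and 0.95) and AAGAB (0.97 and 0.88). ABL2 had 766 CPM in ES1 and a median of 94.7 CPM over the 12 libraries, and COMMD6 1091 CPM in ES1 and a median of 118 CPM. BMPR1A was closest to ANKRD46, LAMA1 and RASL11B (0.94 to 0.95). AMHR2 was closest to PMVK, an enzyme of cholesterol synthesis (0.90), BCAT2 (0.90) and ENSSSCG00000029088 (0.90). ID1 was closest to XPO6 (0.90), the basement membrane collagen COL4A2 (0.89) and the connexin GJC1 (0.89). BMP2 was closest to MRPS9 (0.88), FAM135A (0.88) and DSEL (0.86), and BMP4 to DYNC1I2 (0.91), BRI3 (0.89) and ATG2A (0.88). The BMP6 row taken was closest to a joined row of NISCH and STAB1 (0.92), to ENSSSCG00000005095 (0.89) and to the phosphatase PTPRM (0.88). The BMPR2 row taken was closest to ENSSSCG00000016837 (0.89), TRIP4 (0.87) and PDGFD (0.86).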

How the data were processed

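Per the labels' protocols, Trizol-extracted RNA of 12 ovaries gave dUTP strand-specific libraries after ribosomal RNA depletion. Tools named in the submitters' processing notes are cutadapt, FastQC, TopHat and HISAT2, with the build Sscrofa11.1. How reads were counted, and with which strand setting, is not given in the sources used here. For each locus the authors deposited raw counts and FPKM values, normalised by them for length and library size, per the file headers. All 24 per-sample columns were used. Groups came from the sample titles, and title numbers were not used as pairs. The correlations of same-numbered libraries after removal of group means were -0.070 to 0.289. Only those numbered 1 (0.289) and 5 (0.251) were each other's best match, so pairing by number was not settled. The labels say that ES and NES gilts were sisters but not that the numbers mark litters.

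Counts were tested with edgeR 4.0.16 (R 4.3.3; TMM factors, quasi-likelihood test, no covariate), for loci whose FPKM averaged 0.5 or more, with Benjamini-Hochberg adjustment and a threshold of 0.05. The SE is the log2 difference divided by the square root of F. The script was tested on simulated counts. Alternatives were RLE and upper-quartile scaling, other filters, DESeq2 1.42.0, limma 3.58.1 on log2(FPKM + 0.1, 0.5 or 1), a robust fit, the replicate block, summed rows and libraries left out; coding rows, ES1 with ES4 left out, and libraries left out for GREM1 were added after the values were seen. Ratios were tested over all divisions of the libraries (Python 3.11.15, numpy 2.4.6). The 9 members, the pathway and marker lists and the ratios were chosen with earlier results of these data known. Named genes were the members, up to 3 pathway genes per subgroup with the smallest p-values, and the 3 loci most like each member with a mean FPKM of at least 1. No sequence was used, and a pair of loci were left out of the pathway and likeness lists and are not reported here.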

Additional observations from a re-analysis of the deposited data

Results flagged for a closer look

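In each of 56 groups of 6 values, a library was marked if its gap to the nearest exceeded 0.625 of the range (Dixon's criterion). Chance passes this screen in about 1 of 20 groups of independent, normal values. Values in CPM need not be normal, and each ratio shares values with its genes, so that rate need not hold here. The screen marked 8 values. In ES1 these were BMPR1B (4512 CPM, next 505 CPM) and the log2 ratio of BMPR1B to BMPR1A (3.32, next 0.24). In ES3 they were GREM1 (7.10 CPM, next 0.476 CPM), ACVRL1 (126 CPM, next 38.8 CPM), SMAD7 (60.3 CPM, next 22.7 CPM), NEO1, which was low (68.2 CPM, next 169 CPM), and the log2 ratio of GREM1 to the 3 ligands (-1.65, next -3.20). In NES the only one was the inner BMP6 row in NES6 (103.5 CPM, next 63.4 CPM). AMHR2 in ES6 was not marked by this screen.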

How the results depend on the processing

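None of the 8 tested members was called by edgeR, DESeq2 or limma under any of 26 alternatives, though DESeq2 gave BMPR1B no p; GREM1 was fitted only by edgeR without a filter, where leaving out each of the 12 libraries gave no call. Whether the title numbers mark pairs was not settled. With the replicate block edgeR called 0 loci higher and 0 lower. BMPR1B then had a log2 difference of 1.21 and AMHR2 turned to -0.056. Loci called higher and lower in ES numbered 31 and 162 with TMM factors, 3 and 25 with no filter, 465 and 600 with DESeq2, and 260 lower with upper-quartile scaling. Limma gave 17 and 313, 18 and 304, and 20 and 317 with pseudocounts of 0.5, 0.1 and 1. Without ES3 and ES6 it was 1 and 0, without ES1 and ES4 0 and 0, and with 1 library left out 0 to 70 and 0 to 345. The pathway count was 1 with upper-quartile scaling and with each limma pseudocount, 2 with DESeq2, and 0 to 1 with 1 library left out, the gene being FST each time and SMAD4 the second with DESeq2. The ratio of BMPR1B to BMPR1A kept its direction; it was 1.32 (adjusted p = 0.125) with the replicate block, 0.43 without ES1 and ES4, and 0.65 to 1.57 with 1 library left out. AMHR2 turned with limma (-0.090, -0.13 and -0.060 with pseudocounts of 0.5, 0.1 and 1) and without ES3 and ES6 (-0.075), and had -0.23 to 0.32 with 1 library left out. BMP4 turned with limma at a pseudocount of 0.1 (-0.010) and had -0.068 to 0.29 with 1 library left out, and ID1 turned without ES3 and ES6 (0.18) and had -0.28 to 0.17. Without ES3 and ES6 BMP15 turned to 0.090 and ATOH8 to 0.17, and without ES1 and ES4 ID2 turned to 0.13. With 1 library left out BMP15 had -0.33 to 0.015, ID2 -0.30 to 0.17 and ATOH8 -0.17 to 0.11. BMPR1B was 1.03 with limma at a pseudocount of 0.5 and 1.78 with the rows of a symbol summed. The cause of these changes was not tested.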
